A study of Homo sapiens with 6 samples.

Results

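RAS proteins are small GTPases that switch between a GDP-bound and a GTP-bound form, and GTP-bound RAS recruits RAF kinases to the membrane. RAF phosphorylates the kinases MEK1 and MEK2, which phosphorylate ERK. SHP2, the tyrosine phosphatase encoded by PTPN11, acts between receptor tyrosine kinases and RAS, and in mammary epithelium the cascade carries growth signals from EGF and ERBB receptors. The genes described here are 7 genes of that cascade, namely the RAS-family genes NRAS, HRAS, MRAS, RRAS and RRAS2, the RAF kinase gene BRAF, and MAP2K1, which encodes MEK1. A gene was followed through the probe set that carried its symbol alone. Of the 7, 5 had such a probe set, among 18377 genes in all. HRAS, MRAS, RRAS, RRAS2 and MAP2K1 had 1 probe set each. NRAS and BRAF were matched to no probe set through the annotation used and were not analysed here.

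The 6 arrays (Affymetrix HuGene-1_0-st-v1, whole-transcript) held RNA of MCF10A-HER2/3 cells, which derive from MCF10A, a human mammary epithelial line, after 15 days in three-dimensional culture. The groups were SHP2 miR1, SHP2 miR2 and CTRL miR, with 2 arrays each. The first 2 carried a doxycycline-inducible lentiviral miR directed at SHP2 and the third a control miR, and all 3 groups received doxycycline every 2 days and medium with EGF, insulin, cholera toxin, hydrocortisone and horse serum. The labels do not say whether cells were clones or pools, what HER2/3 stands for, or whether the 2 arrays of a group stem from different cultures. The p-values therefore cover the spread among these arrays alone, which may be technical.

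The data asked whether transcripts of the cascade itself differed when SHP2 was reduced. PTPN11 was 6.04 and 5.71 on the SHP2 miR1 arrays, 6.90 and 7.28 on the SHP2 miR2 arrays, and 7.96 and 8.44 on the CTRL miR arrays (log2 probe set values). All 8 measured mammary epithelial markers were above the 40th percentile of genes, and their mean value lay between 9.63 and 9.89 on every array. Of the leukocyte, endothelial, fibroblast and adipocyte markers 2 of 5, 2 of 5, 2 of 6 and 0 of 4 were above it. The leukocyte mean was 5.89 to 5.92 with SHP2 miR1 and 5.72 to 5.93 with SHP2 miR2, against 5.67 to 5.70 with CTRL miR. Among the leukocyte markers PTPRC, the gene of CD45, was lowest, at 3.18 to 3.53 on the 6 arrays. CD68 was highest, with a mean of 9.22 (97th percentile of genes), and CD14 had 7.06 (74.4th percentile). The endothelial mean was 4.77 to 4.87 with SHP2 miR1 and 4.88 to 4.96 with SHP2 miR2, against 4.91 to 4.97 with CTRL miR. The fibroblast mean was 5.46 to 5.47 with SHP2 miR1 and 5.41 to 5.53 with SHP2 miR2, against 5.45 to 5.54 with CTRL miR. Its markers ranged from LUM, with a mean of 3.06 over the 6 arrays, to DCN, with 8.30. The adipocyte mean was 4.40 to 4.46 with SHP2 miR1 and 4.23 to 4.24 with SHP2 miR2, against 4.30 to 4.36 with CTRL miR. In the average over both SHP2 miRs KRT14 rose and LAMB3 fell among the epithelial markers (1.10 and -1.07), and PECAM1 rose and TEK fell among the endothelial ones (0.60 and -1.38). None of the leukocyte markers passed in that average, with 0.96 for CD14 (limma adjusted p = 0.0505) and -0.43 for CD68 (0.118), nor did those of fibroblasts, with -0.25 for COL1A1, or of adipocytes, with -0.13 for FABP4. With SHP2 miR1 alone CD14 rose (1.08, limma adjusted p = 0.0366) and CD68 fell (-0.71, 0.0272), and of the endothelial markers PECAM1 and KDR rose (0.65 and 0.60) and TEK fell (-2.16). The part of these markers in the results was not tested.

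The stretch upstream of the start of MAP2K1 is shown because MAP2K1 was the member with the largest difference among the 5. That of HRAS is shown as an example of a member that passed in no comparison, which also held for MRAS and RRAS2. Each is the 250 bases before a RefSeq transcript start in GRCh38.p14, the one lying furthest upstream where a gene had several, printed 5′ to 3′ on the gene's strand. The MAP2K1 stretch is chr15:66386662-66386911 on the plus strand and the HRAS stretch is chr11:535577-535826 on the minus strand. Capitals mark matches on either strand to TGACG, the core of the cAMP response element, to CCGGAAG, an ETS core, or to TGANTCA, the AP-1 element.
MAP2K1: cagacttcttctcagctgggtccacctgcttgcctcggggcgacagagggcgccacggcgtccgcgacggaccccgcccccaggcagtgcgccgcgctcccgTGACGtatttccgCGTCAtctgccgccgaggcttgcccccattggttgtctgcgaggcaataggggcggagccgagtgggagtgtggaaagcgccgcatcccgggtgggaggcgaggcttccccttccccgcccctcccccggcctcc
HRAS: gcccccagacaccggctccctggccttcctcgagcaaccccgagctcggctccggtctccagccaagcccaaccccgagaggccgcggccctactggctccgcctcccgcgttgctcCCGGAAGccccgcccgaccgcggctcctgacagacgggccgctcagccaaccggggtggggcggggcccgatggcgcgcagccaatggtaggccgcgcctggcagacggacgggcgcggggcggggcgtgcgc
TGACG matched at 2 places in the MAP2K1 stretch, once on each strand, starting 148 and 135 bases before the transcript start, and 21.6% of the 27305 genes with such a stretch held at least 1 match. CCGGAAG matched once in the HRAS stretch, starting 133 bases before the start, and 8.78% of genes held it. TGANTCA matched in neither, and 6.57% of genes held it. GGGCGG, the SP box, was also searched, without capitals, and matched 3 times in each stretch, as it did at least once in 42.2% of genes. None of these matches overlapped those in capitals. The stretches of MRAS and RRAS2, which are not printed, held no match to any of these motifs. A match describes the letters and is not evidence of a bound site.

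MAP2K1 was the member that fell in both the comparison of SHP2 miR1 and the average of both SHP2 miRs with CTRL miR. MAP2K1 encodes MEK1, the kinase that phosphorylates ERK. Its log2 value was 8.29 and 8.06 on the SHP2 miR1 arrays, 8.97 and 8.76 on the SHP2 miR2 arrays, and 9.30 and 9.27 on the CTRL miR arrays. The 3 groups did not overlap: both SHP2 miR1 arrays lay below both SHP2 miR2 arrays, which lay below both controls. PTPN11 was ordered in the same way. In these bulk cultures, fewer cells of a kind and less RNA per cell cannot be told apart. Of all genes, 8.08% showed this order without overlap, and 13.6% had all 4 SHP2 miR arrays below both controls.

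With SHP2 miR1, MAP2K1 fell by 1.11 log2 units (SE 0.16, 2.16-fold, limma adjusted p = 0.00479), in a comparison in which 8.6% of genes passed the threshold of adjusted p at or under 0.05 and 5.94% passed as lower. It stayed past the threshold with any 1 of the 6 arrays left out, with an adjusted p of up to 0.0497 (without CTRL miR replicate 2). For SHP2 miR2 it was -0.42 (SE 0.16, 95% interval -0.78 to -0.06), which did not pass (limma adjusted p = 0.381), where 0.37% of genes passed. In the average of both SHP2 miRs MAP2K1 fell by 0.76 (SE 0.14, 1.70-fold, limma adjusted p = 0.0180), where 4.2% of genes passed and 2.67% passed as lower. The average missed the threshold without SHP2 miR1 replicate 2 (0.0521), SHP2 miR2 replicate 2 (0.0513), CTRL miR replicate 1 (0.0957) or CTRL miR replicate 2 (0.158). SHP2 miR2 minus SHP2 miR1 was 0.69 (95% interval 0.33 to 1.05, limma adjusted p = 0.115), and 0.19% of genes passed in that comparison.

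**Figure D1:**
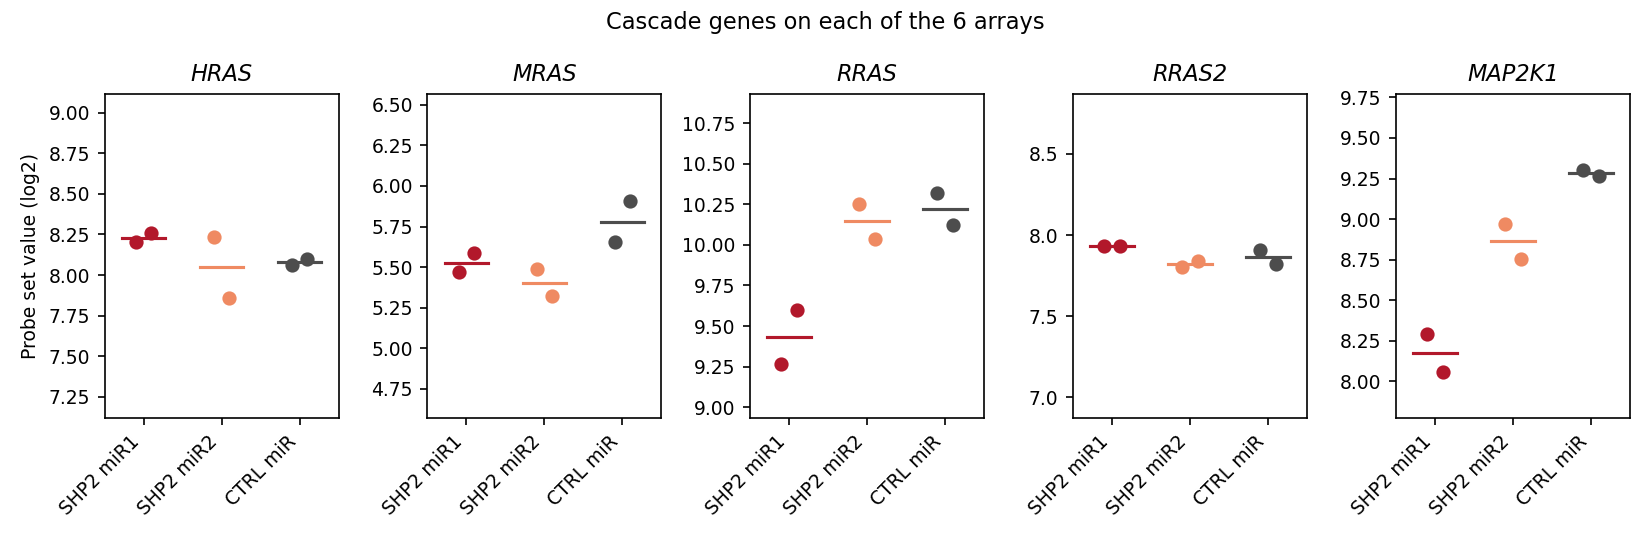
Log2 probe set value (vertical axis, a span of 2 log2 units in every panel) of 5 cascade genes on the 6 arrays, by group; points are arrays and lines are means of 2 arrays. MAP2K1 steps up across SHP2 miR1, SHP2 miR2 and CTRL miR without overlap, RRAS is low on the 2 SHP2 miR1 arrays, and the 6 points of RRAS2 lie closest together.

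RRAS was lower with SHP2 miR1. RRAS encodes R-Ras, a RAS-family GTPase known for its part in integrin-mediated adhesion. Its log2 value was 9.27 and 9.60 on the SHP2 miR1 arrays, 10.25 and 10.04 on the SHP2 miR2 arrays, and 10.32 and 10.13 on the CTRL miR arrays. Both SHP2 miR1 arrays lay below all other arrays, while the SHP2 miR2 and CTRL miR arrays overlapped. Of all genes, 29% had both SHP2 miR1 arrays below both controls.

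With SHP2 miR1, RRAS fell by 0.79 (SE 0.17, 1.73-fold, limma adjusted p = 0.0284). For SHP2 miR2 it was -0.08, with a 95% interval of -0.47 to 0.32 (limma adjusted p = 0.911). The average of both was -0.43 (95% interval -0.78 to -0.09, limma adjusted p = 0.150) and did not pass. SHP2 miR2 minus SHP2 miR1 was 0.71 (95% interval 0.32 to 1.11), which did not pass either (limma adjusted p = 0.125), so a difference between the 2 SHP2 miRs in RRAS was not shown at that threshold. With the prior variance fitted as a trend over mean value it did pass (limma adjusted p = 0.00220), as did that of MAP2K1 (0.00441). The SHP2 miR1 call was lost without SHP2 miR1 replicate 1 (0.161) or 2 (0.0507) and without CTRL miR replicate 1 (0.0924) or 2 (0.119), with differences between -0.96 and -0.63.

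MRAS, whose product forms a phosphatase complex with SHOC2 and PP1 that helps to activate RAF, gave lower values with both SHP2 miRs but did not pass. It had 5.47 and 5.58 on the SHP2 miR1 arrays, 5.49 and 5.32 on the SHP2 miR2 arrays, and 5.66 and 5.90 on the CTRL miR arrays. All 4 SHP2 miR arrays lay below both controls, as in 13.6% of all genes, and the 2 SHP2 miR groups overlapped. The differences were -0.25 with SHP2 miR1 (95% interval -0.62 to 0.11, limma adjusted p = 0.324) and -0.38 with SHP2 miR2 (95% interval -0.74 to -0.01, limma adjusted p = 0.432). The average was -0.32 (unadjusted p = 0.0487, limma adjusted p = 0.236). At an unadjusted p under 0.05, 20.9% of all genes passed in that average. The mean value of MRAS lay at the 45.4th percentile of genes and is the lowest percentile among the 5 genes.

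HRAS, which encodes 1 of the classical RAS proteins, had 8.20 and 8.26 on the SHP2 miR1 arrays, 8.23 and 7.86 on the SHP2 miR2 arrays, and 8.06 and 8.10 on the CTRL miR arrays. The SHP2 miR2 arrays lay on either side of both controls. The difference with SHP2 miR1 was 0.15 (95% interval -0.23 to 0.53, limma adjusted p = 0.580) and with SHP2 miR2 it was -0.03 (95% interval -0.41 to 0.34, limma adjusted p = 0.967).

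RRAS2, the gene of the R-Ras relative TC21, had 7.94 and 7.93 on the SHP2 miR1 arrays, 7.80 and 7.84 on the SHP2 miR2 arrays, and 7.91 and 7.82 on the CTRL miR arrays. The SHP2 miR2 and CTRL miR arrays overlapped, and the 6 arrays spanned the narrowest range of the 5 genes. The difference was 0.07 with SHP2 miR1 (95% interval -0.25 to 0.39) and -0.04 with SHP2 miR2 (95% interval -0.37 to 0.28). The average was 0.01 (limma adjusted p = 0.967). The intervals of HRAS and RRAS2 leave room for changes of up to 0.53 and 0.39 on the log2 scale, and the sign of RRAS2 turned to -0.02 in the average and -0.01 with SHP2 miR1 when arrays were centred on their medians.

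Of the 5 measured genes 2 fell and 0 rose with SHP2 miR1, where 5.94% of all genes fell. In limma 0 of the 5 passed with SHP2 miR2, where 0.37% of all genes passed. In the average 1 fell and 0 rose, where 2.67% of all genes fell. Both SHP2 miR comparisons used the same control arrays. The median difference of the 5 genes was -0.25 with SHP2 miR1, -0.08 with SHP2 miR2 and -0.32 in the average, beside 0.04, -0.01 and 0.02 over all genes.

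**Figure D2:**
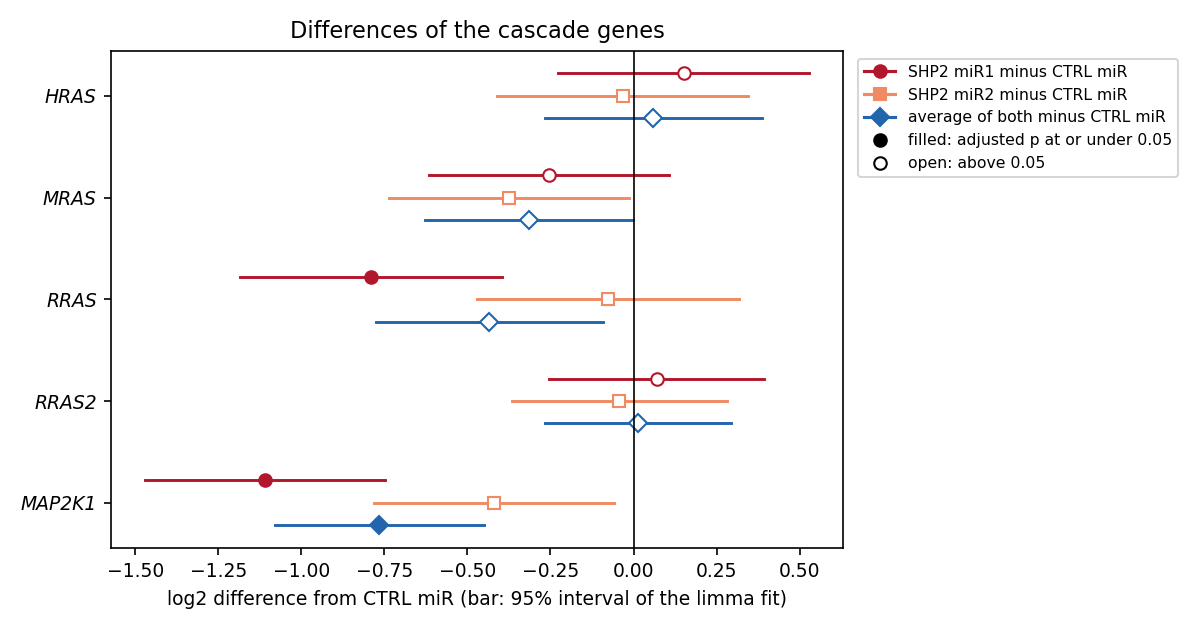
Log2 difference from CTRL miR (horizontal axis) of the 5 measured cascade genes for SHP2 miR1, SHP2 miR2 and the average of both, with 95% intervals of the limma fit; filled symbols have an adjusted p at or under 0.05. Filled symbols stand at -1.11 and -0.76 for MAP2K1 and at -0.79 for RRAS, and the other 12 symbols are open.

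The genes most like each member over the 6 arrays were sought among 13046 other genes above the 40th percentile of probe sets. These correlations describe 6 arrays that share 3 groups, and high values arise easily over so few points. MAP2K1 had LAMC1, a laminin chain gene, at r = 0.999, FNBP4 at 0.995 and ACLY, the gene of ATP citrate lyase, at 0.995. In all, 390 genes reached r above 0.95 with MAP2K1, against 96 with RRAS, 115 with RRAS2, 24 with HRAS and 14 with MRAS. RRAS was most like CRYAB, a small heat shock protein gene (r = 0.994), CHD3 (0.994) and BLMH (0.992). None of these 6 genes passed in the average, with limma adjusted p-values between 0.0672 and 0.653. The leading genes were TCFL5 for MRAS (r = 0.992), CORO1A for HRAS (0.992) and C3orf22 for RRAS2 (0.996).

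The transcripts of 22 measured proteins that work at or just after the RAF, MEK and ERK steps included kinases, scaffolds and regulators. In the average 1 of the 22 fell, 0 rose, and the median was 0.04, where 2.67% of all genes fell. The count was 4 with a variance trend and 2 with dim genes left out, with median centring or with the replicate block. The gene was RPS6KA2, a p90 ribosomal S6 kinase activated by ERK. It had 6.94 and 6.72 on the SHP2 miR1 arrays, 7.29 and 7.29 on the SHP2 miR2 arrays, and 7.72 and 7.72 on the CTRL miR arrays. It fell by 0.66 (SE 0.13, limma adjusted p = 0.0250), and passed in 1 of the 6 fits that left out an array, that without SHP2 miR1 replicate 1, with an adjusted p of up to 0.199 in the others.

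With SHP2 miR1 alone 5 of these 22 fell and 0 rose, with a median of 0.01, where 5.94% of all genes fell. Besides RPS6KA2 they were SHOC2, the partner of M-Ras, at -0.85, the ERK-binding protein gene PEA15 at -0.60, the MEK1 scaffold gene LAMTOR3 at -0.89 and the scaffold gene IQGAP1 at -0.58. These 4, and MAP2K2, MAPK3 and ARAF, were singled out after their values were seen. SHOC2 and LAMTOR3 missed the threshold without SHP2 miR1 replicate 1 or 2 or CTRL miR replicate 2, at up to 0.207 and 0.278. PEA15 and IQGAP1 passed in 0 of the 6 fits that left out an array, with adjusted p-values of up to 0.163 and 0.263. MAP2K2, which encodes MEK2, the close relative of MEK1, had 8.40 and 8.36 on the SHP2 miR1 arrays, 8.05 and 7.95 on the SHP2 miR2 arrays, and 8.07 and 7.89 on the CTRL miR arrays. Its difference with SHP2 miR1 was 0.40 (limma adjusted p = 0.126). MAPK3, the gene of ERK1, had 0.16 (adjusted p = 0.513) and the RAF kinase gene ARAF had 0.03 (adjusted p = 0.921).

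Upstream of the cascade, exchange factors such as SOS1 and SOS2 load RAS with GTP. Of 15 measured exchange factors and adaptors, 0 passed in the average in limma, where 4.2% of all genes passed. SOS2 had the smallest p, at -0.52 (SE 0.14, limma adjusted p = 0.0780). SOS2 had 6.26 and 6.02 on the SHP2 miR1 arrays, 6.62 and 6.50 on the SHP2 miR2 arrays, and 6.77 and 6.98 on the CTRL miR arrays. It was the 1 of the 15 that fell with SHP2 miR1, by 0.73 (limma adjusted p = 0.029), and it missed the threshold without either control or either SHP2 miR1 array, at up to 0.194. The gene of next smallest p in the average was RASGRF1, at -0.44 (limma adjusted p = 0.183). The share of the 15 that fell with SHP2 miR1, 6.67%, was near the 5.94% of all genes that fell there.

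Among 12 measured GTPase-activating proteins and other RAS inhibitors, which switch RAS off or lower its amount, 3 fell and 0 rose in the average, with a median of -0.32, where 2.67% of all genes fell. RASAL2, a RAS GTPase-activating protein gene, fell by 0.83 (SE 0.13, limma adjusted p = 0.0108). Like 13.6% of all genes, it had all 4 SHP2 miR arrays below both controls. Its values were 5.41 and 5.65 with SHP2 miR1, 5.88 and 5.81 with SHP2 miR2, and 6.48 and 6.56 with CTRL miR. Without either control it missed the threshold, at up to 0.136. RABGEF1, whose product ubiquitinates RAS, fell by 0.67 (SE 0.15, limma adjusted p = 0.0379), and SPRED1, which brings the GTPase-activating protein neurofibromin to RAS, by 0.66 (SE 0.16, limma adjusted p = 0.0490).

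With SHP2 miR1, 5 of the 12 inhibitors fell, by between 0.89 and 0.99, where 5.94% of all genes fell. They added SPRED2 and RASA2, which were named after their values were seen. Without CTRL miR replicate 2 all 5 missed the threshold, with adjusted p-values between 0.0732 and 0.178. All 5 also missed it without SHP2 miR1 replicate 1. RABGEF1, RASA2 and SPRED1 missed it without SHP2 miR1 replicate 2, and SPRED1 and SPRED2 without CTRL miR replicate 1. With SHP2 miR2, 0 of the 12 passed in limma, where 0.37% of all genes passed. The average count of 3 was 0 without either control replicate, 1 without replicate 1 of SHP2 miR1 or of SHP2 miR2, 1 with quantile normalization and 5 with a variance trend. RABGEF1 passed in 0 of the 6 fits that left out an array (adjusted p up to 0.332), and SPRED1 passed only without SHP2 miR2 replicate 2.

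**Figure D3:**
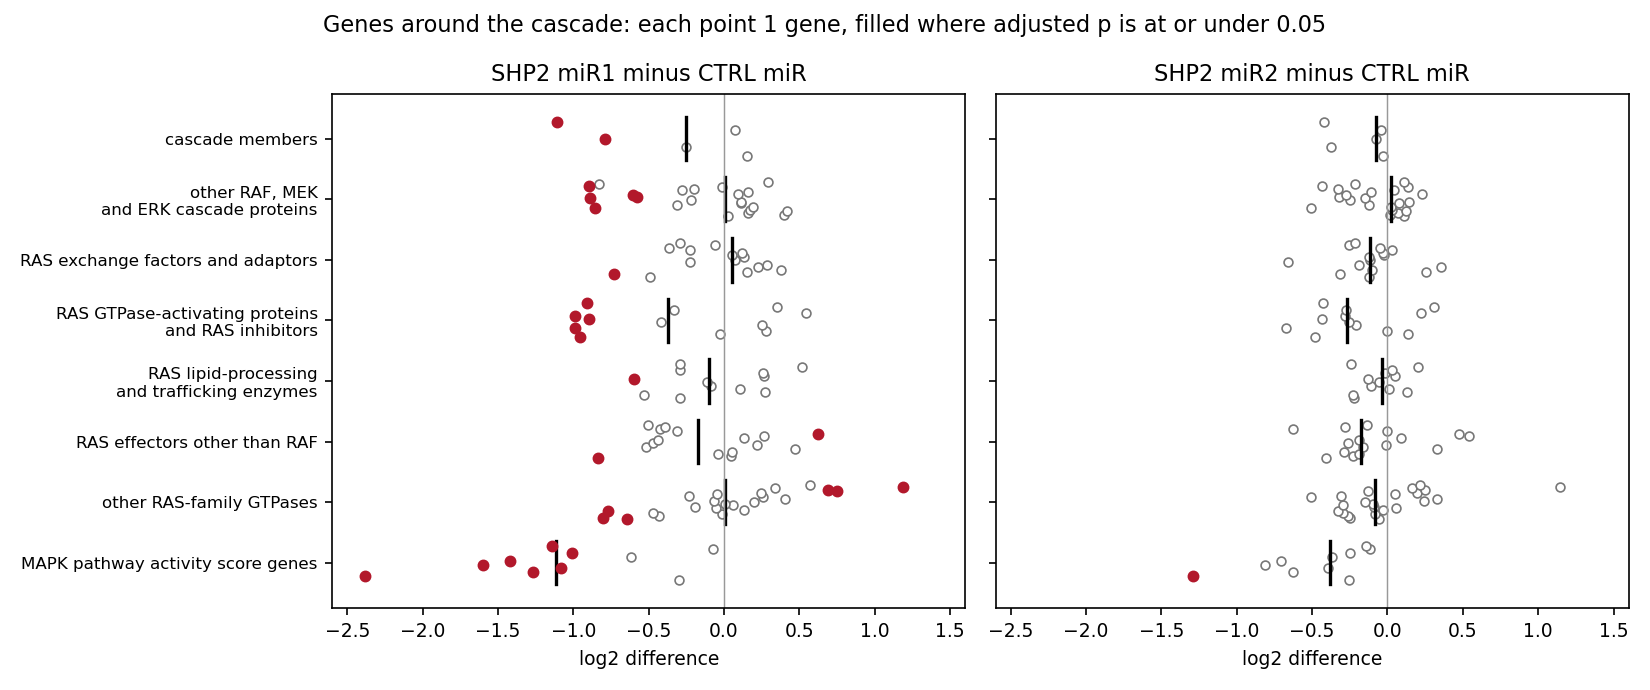
Log2 difference from CTRL miR (horizontal axis) with SHP2 miR1 (left) and SHP2 miR2 (right) for genes in 8 lists around the cascade; each point is 1 gene, filled where the adjusted p is at or under 0.05, and vertical bars are list medians. Filled points are 5 of 22 and 5 of 12 for the kinase step and the RAS inhibitors with SHP2 miR1, and 0 in both with SHP2 miR2.

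At the output end, the 10 genes of a published transcript score of MAPK pathway activity had a mean log2 value of 6.19 and 5.99 on the SHP2 miR1 arrays, 6.68 and 6.68 on the SHP2 miR2 arrays, and 7.17 and 7.19 on the CTRL miR arrays. The groups were ordered as for MAP2K1, without overlap. In the average 6 of the 10 fell and 0 rose, with a median of -0.69 (2.67% of all genes fell), and with SHP2 miR2 alone the count was 1, the feedback inhibitor SPRY4. Without CTRL miR replicate 1 or 2 the average count was 3 or 1, and without SHP2 miR1 replicate 2 it was 3. The fall of ERK output transcripts in these arrays was known when the score was chosen, so it is no independent evidence. Falls of MAP2K1 and of PTPN11 stood on the same arrays as this lower score, and their part in it was not tested.

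**Figure D4:**
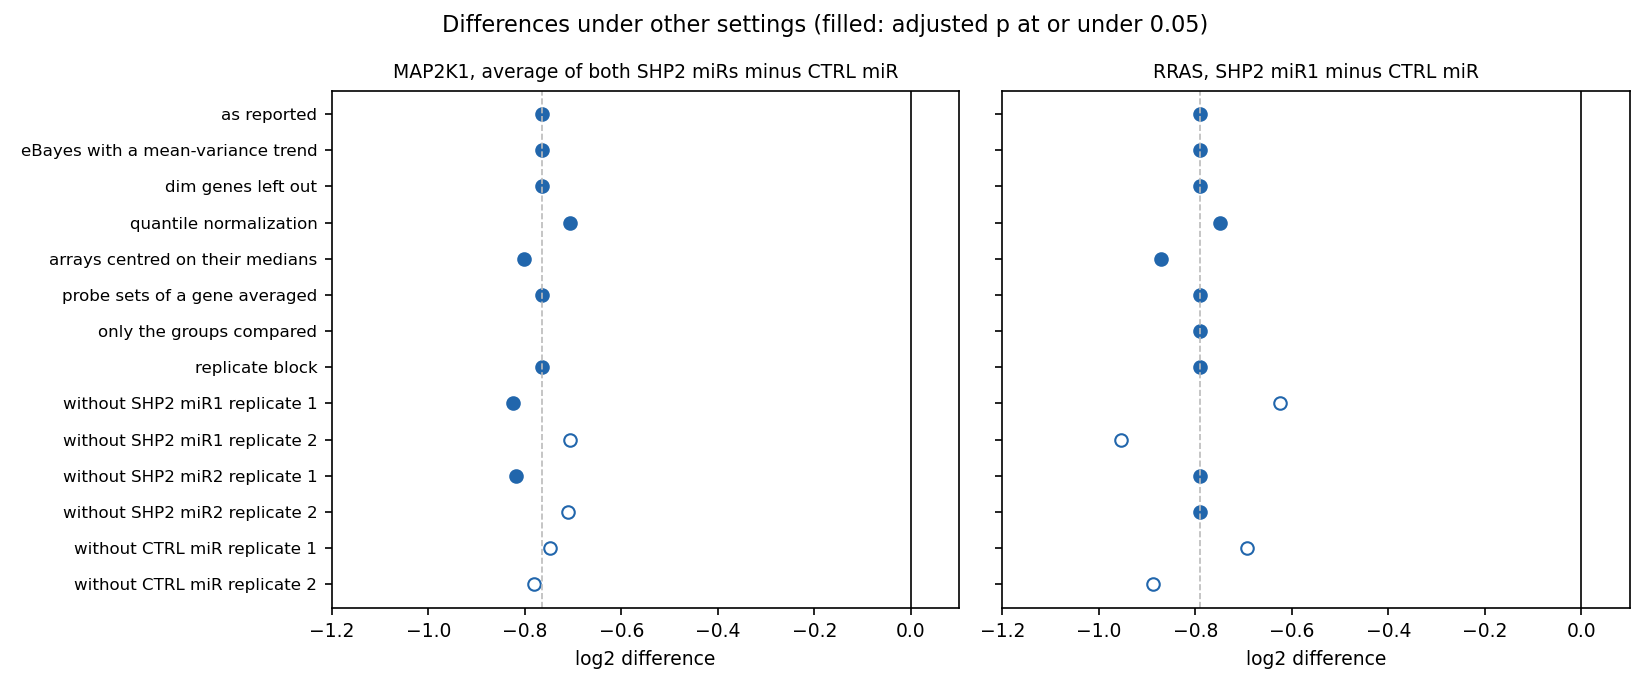
Log2 difference (horizontal axis) of MAP2K1 in the average of both SHP2 miRs minus CTRL miR (left) and of RRAS in SHP2 miR1 minus CTRL miR (right), as reported and under other settings, 1 per line; filled points have an adjusted p at or under 0.05. MAP2K1 stayed between -0.82 and -0.71 and RRAS between -0.96 and -0.63, and each lost its call in 4 of the 6 fits with 1 array left out; the average uses all groups, so it has no point for the groups compared alone.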

How the data were processed

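The authors deposited 1 processed log2 value per probe set and array; their range points to base 2, which the labels do not state. Per the submitters' processing notes they used R 2.10 and oligo 1.8; the background correction, normalization, probe summary and build are not stated in the sources used here. Medians of the arrays lay between 5.23 and 5.35, and replicates correlated at r = 0.985 to 0.986 across genes. Precision is limited by the number of arrays.

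Of 28869 probe sets, 19310 had 1 symbol in the platform annotation, 1752 several and 7807 none. Where a gene had more than 1 such probe set (685 genes), the brightest by mean was kept, leaving 18377 genes. Symbols are those of the annotation, of which 19279 probe sets matched a RefSeq gene identifier and 0 symbols needed updating. Transcripts of close relatives or pseudogenes may bind the same probes.

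The test was limma 3.58.1 (R 4.3.3), with a linear model of the 3 groups over the 6 arrays and eBayes (3 residual and 6.10 prior degrees of freedom). Tests were two-sided and adjusted by Benjamini-Hochberg over all genes. The fit was tested on simulated data. Members and lists were chosen with earlier results of these data known. Named genes are the members, PTPN11, up to 4 passing genes of each list by smallest p in the average (up to 2 as values where none passed), and the 3 genes most correlated with each member. Genes named outside this rule (among them PTPRC, KDR, SHOC2, MAP2K2, SPRED2 and RAP1B) were chosen after their values were seen. Alternatives were a variance trend, a filter that dropped genes not above the 40th percentile of probe sets, median centring, quantile normalization, averaging probe sets, fits on the groups compared, a replicate block and leaving out each array. Promoter sequences are from RefSeq (GRCh38.p14); 6 of the 7 genes had one.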

Additional observations from a re-analysis of the deposited data

How the results depend on the processing

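Without 1 array in turn, MAP2K1 averaged over both SHP2 miRs lay between -0.82 and -0.71, and its call was lost in 4 of 6 fits; members called lay between 0 and 1 in the average and between 1 and 2 with SHP2 miR1, and were 0 with SHP2 miR2 and between the SHP2 miRs. Genes called lay between 108 and 512 in the average (771 as reported), 269 and 1308 with SHP2 miR1 (1581), 0 and 60 with SHP2 miR2 (68), and 0 and 15 between the SHP2 miRs (35). The lowest count with SHP2 miR2 came from the fits without CTRL miR replicate 1 or 2. With all 6 arrays, 68 genes passed with SHP2 miR2 at the adjusted threshold and 2025 at an unadjusted p under 0.05. Unadjusted counts were not made with an array left out. A group reduced to 1 array was assumed to vary like the remaining groups.

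With a variance trend, 1793 genes were called in the average, 2786 with SHP2 miR1, 367 with SHP2 miR2 and 446 between the SHP2 miRs, and 2 members, MAP2K1 and RRAS, passed both in the average and between the SHP2 miRs. Leaving out dim genes gave 154 calls with SHP2 miR2 and 95 between the SHP2 miRs, median centring 69 between the SHP2 miRs, and the groups compared alone 12 there. Median centring also gave a SHP2 miR1 split of 378 higher and 1536 lower, against 489 and 1092 as reported. The cause was not tested. RRAS2 turned to -0.0235 in the average and -0.0108 with SHP2 miR1 under median centring.

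With 1 array left out, signs of small differences turned. HRAS lay between -0.034 and 0.153 in the average, -0.22 and 0.154 with SHP2 miR2 and -0.371 and 0.0027 between the SHP2 miRs. RRAS lay between -0.184 and 0.0287 with SHP2 miR2. RRAS2 lay between -0.0307 and 0.0585 in the average and -0.0872 and 0.002 with SHP2 miR2.

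Whether a replicate number links arrays of different groups is not stated in the labels. Differences between replicates 1 and 2 correlated at 0.01, 0.07 and 0.14 between groups, and a shared batch was not tested. With the replicate number as a block, 37 genes were called with SHP2 miR2 and 12 between the SHP2 miRs, 817 in the average and 1709 with SHP2 miR1, and no call of the 5 cascade genes changed.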

Other observations

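Other RAS-family GTPases passed in both directions with SHP2 miR1 alone. Of 23 measured, RASL11B, a small GTPase of the RAS-like family, was the 1 that passed in the average, where 4.2% of all genes passed, and it rose by 1.17 (SE 0.17, limma adjusted p = 0.00693). Its difference was 1.19 in the SHP2 miR1 comparison, which passed (limma adjusted p = 0.00934), and 1.14 in that of SHP2 miR2, which did not (limma adjusted p = 0.0523). It had 6.20 and 6.30 on the SHP2 miR1 arrays, 6.32 and 6.09 on the SHP2 miR2 arrays, and 5.33 and 4.80 on the CTRL miR arrays. Its call was lost without CTRL miR replicate 2 (adjusted p = 0.0973). With SHP2 miR1 alone 3 of the 23 rose (RASL11B, RASL10A and RASL10B) and 3 fell (RAP1B, RIT1 and RAP1A), between -0.81 and 1.19. Of all genes, 2.66% rose and 5.94% fell in that comparison, and the list median was 0.01. Apart from RASL11B, the genes in these counts were named after their values were seen. RAP1A passed in 0 of the 6 fits that left out an array, and RASL10A, RASL10B, RAP1B and RIT1 failed in 3 or 4 of them, each including the fit without CTRL miR replicate 2.

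Among 16 measured genes listed as RAS effectors other than RAF, 1 fell and 1 rose in the average, with a median of -0.14. Of all genes, 2.67% fell and 1.53% rose in that average. PIK3CB, a catalytic subunit gene of PI3-kinase, fell by 0.62 (SE 0.14, limma adjusted p = 0.0414), and RIN1, a RAS effector that activates RAB5, rose by 0.55 (SE 0.13, limma adjusted p = 0.0441). Both passed in 0 of the 6 fits that left out an array, where the adjusted p reached 0.326 for PIK3CB and 0.296 for RIN1. The count that rose was 0 with the replicate block or median centring, and the count that fell was 0 with quantile normalization. Of 12 enzymes and carriers of RAS lipid processing, 0 passed in the average in limma, where 4.2% of all genes passed. The depalmitoylating enzyme gene LYPLA1 had -0.36 (adjusted p = 0.163) and the RAS chaperone gene PDE6D had -0.27 (adjusted p = 0.274). With SHP2 miR1 alone LYPLA1 fell by 0.60 (limma adjusted p = 0.0435). It was the 1 of the 12 that passed there, or 8.33%, where 5.94% of all genes fell. With any 1 array left out it lay between -0.66 and -0.53, and its call was lost.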
